A study of Arabidopsis with 12 samples.

Results

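Seedlings of the flu toc33 double mutant and of the flu mutant were compared after 4 h of darkness and 1 h of renewed light, a treatment under which flu plants are known to form singlet oxygen in their plastids. The members are the 6 RNA-seq libraries of these lit groups out of 12 in the series, chosen by their labels alone: 3 of flu toc33 light (flu with the toc33-1 allele, 7 d old) and 3 of flu light (flu, 7 d old). Both groups carry the flu mutation, both grew in continuous light before the dark period, and the other 6 libraries are the same genotypes sampled at the end of the 4 h of darkness (flu toc33 dark and flu dark). No wild type was analysed here, so every difference below is between genotypes that share the flu mutation. Titles speak of seedlings where the tissue field says leaf, and the lesion of toc33-1 is not described. Whether replicates came from separate cultures is not stated either, and the p-values therefore reflect the spread among these libraries, part or all of which may be technical.

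FLU is a brake on tetrapyrrole synthesis. Without it protochlorophyllide, a photosensitizer, builds up in the dark, and on illumination it passes energy to oxygen; the plastid proteins EX1 and EX2 are known to link the singlet oxygen so made to a fast change of nuclear transcription. TOC33 is a GTPase receptor of the TOC complex, which with the TIC complex of the inner envelope brings precursor proteins into the chloroplast, and the title of the series names it as a relay of the singlet oxygen signal. The comparison therefore asks how the nuclear transcript profile of lit flu seedlings differs when TOC33 is disturbed.

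Values are TPM, the share of a transcript among all transcripts of a library after correction for length, summed over the transcripts of a locus. TPM carries no read depth, so counting error cannot be given, and a value is a share of the library and not an amount per cell: fewer cells of a type and less RNA per cell cannot be told apart. Differences are flu toc33 light minus flu light on the log2(TPM + 1) scale, which understates the change of genes at low TPM. In each lit library 18840 to 19023 genes stood at 1 TPM or more. Libraries of a group correlated across genes at 0.996, libraries of different groups at 0.924 to 0.926, and the first principal component, 93.1% of the variance, separated the genotypes. The median absolute difference between libraries was 0.0684 to 0.0848 within a group and 0.321 to 0.345 between groups. RBCS1A, the most abundant small subunit of Rubisco among those listed, averaged 13822 ± 249 TPM in flu toc33 light and 16158 ± 822 TPM in flu light (SD, n = 3 each). This shows green tissue but cannot tell leaf from whole seedling, and root markers, given below, were measured too.

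TOC33 itself was nearly absent from the lit double mutant. TOC33 (AT1G02280) stood at 4.28, 3.88 and 3.76 TPM in flu toc33 light, against 169, 173 and 173 TPM in flu light. The groups did not overlap, and its level was 2.31% of that in flu, a log2 difference of -5.12 ± 0.0483 (SE; limma, adjusted p = 2.2e-13). In the dark libraries the share was 23.9%. TOC34 (AT5G05000), the paralog of TOC33 in the same complex, stood at 40.2, 39.7 and 38.5 TPM in flu toc33 light, against 27.7, 30.8 and 29.7 TPM in flu light, and was higher by a log2 of 0.41 (limma, adjusted p = 1.38e-05). FLU (AT3G14110) was transcribed in all 6 libraries and was higher in the double mutant by a log2 of 0.29. EX1 (AT4G33630) averaged 65.3 ± 3.1 TPM in flu toc33 light and 60.6 ± 1.63 TPM in flu light (SD, n = 3 each), a log2 difference of 0.11 whose adjusted p of 0.0393 lies close to the threshold of 0.05 and was above it when replicate 2 or replicate 3 of either group was left out (log2 0.070 to 0.11). EX2 (AT1G27510) was lower, with 61.2, 62.2 and 63.9 TPM in flu toc33 light, against 77.3, 71.6 and 77.4 TPM in flu light (log2 -0.27, limma, adjusted p = 0.000104).

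The genotypes differed at most expressed genes. Of 19252 genes that reached 1 TPM in 3 or more of the 6 libraries, 8067 were higher in flu toc33 light, which is 41.9%, and 5768 were lower, which is 30.0%, at an adjusted p under 0.05 in limma; in 74.8% of the genes the groups did not overlap. These shares are the background against which every gene group below is read. Differences of at least 2-fold were more often falls: 1528 genes (7.94%) were lower and 709 (3.68%) higher by that much, and at 4-fold the counts were 479 lower and 77 higher. At 16-fold they were 26 lower and 3 higher. The median log2 difference of all genes tested was 0.078, and rescaling the libraries by median ratios brought it to 0.0064 and gave 6812 genes higher and 6820 lower, with the 2-fold counts within 1.5 times of those above. In every gene whose libraries are listed below the lowest library of the higher group lay above the highest of the other. A gene near 0 in 1 group can pass the filter through the other alone and then had to differ, so counts over genes that passed are descriptions. With a pseudocount of 5 TPM in place of 1 TPM the 2-fold counts were 943 lower and 322 higher.

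**Figure D1:**
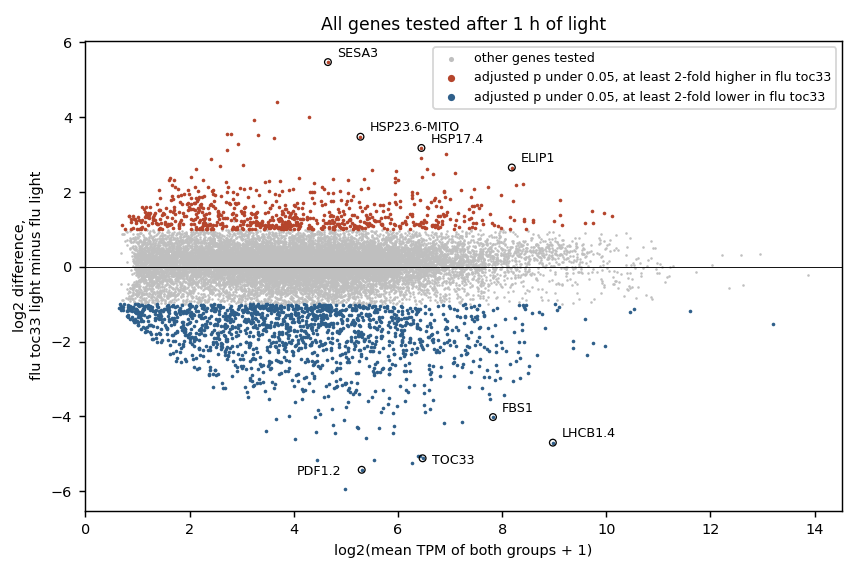
Log2 difference between flu toc33 light and flu light (y axis) against the log2 of the mean TPM of both groups plus 1 (x axis) for the 19252 genes tested, each point 1 gene, with genes past the threshold and at least 2-fold higher in red and lower in blue. Blue points outnumber red ones, 1528 to 709, and reach down past TOC33, PDF1.2 and LHCB1.4, while SESA3 stands alone at the top.

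The 12 largest falls include genes of stress and defence transcription. WRKY30 (AT5G24110), a WRKY transcription factor, stood at 3.04, 2.96 and 2.91 TPM in flu toc33 light, against 147, 154 and 144 TPM in flu light. ERF98 (AT3G23230) and ERF105 (AT5G51190), factors of the ethylene response factor (ERF) family, differed by as much. ERF98 had 1.58, 1.85 and 1.21 TPM in flu toc33 light, against 84.2, 95.2 and 90.6 TPM in flu light. ERF105 had 7.85, 2.88 and 2.47 TPM in flu toc33 light, against 170.0, 162 and 160.2 TPM in flu light, so that replicate 1 of the double mutant stood above its partners but far below every flu library. Their log2 differences were -5.23 ± 0.0459, -5.17 ± 0.0881 and -5.07 ± 0.268 (SE; limma, adjusted p = 2.19e-13, 3.01e-12 and 2.46e-08). PP2-B13 (AT1G56240) and PP2-B14 (AT1G56250), neighbouring genes for F-box proteins of the phloem lectin type, were lower, at log2 values of -5.07 and -4.58, with 4.09, 3.06 and 4.39 TPM in flu toc33 light, against 167, 157 and 158 TPM in flu light for the first of them. PDF1.2 (AT5G44420) and PDF1.2c (AT5G44430), plant defensins, had 0.827, 0.875 and 0.687 TPM in flu toc33 light, against 76.3, 76.8 and 75.5 TPM in flu light for PDF1.2; these defensin copies are near-identical neighbours, and how reads were shared between them is uncertain. The locus AT2G22880 was listed at 0 in all 3 flu toc33 light libraries and averaged 61.0 TPM in flu light; a fold cannot be given. Loci AT1G22810 and AT4G15975, TOC33 itself and LHCB1.4, a chlorophyll-binding protein described with its family below, complete the set.

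Most of the 12 largest rises were seed proteins and heat shock proteins, both of which are described with their groups below. Seed storage proteins took 6 places, SESA3, SESA2, CRU3, SESA1, CRB and SESA4, and small heat shock proteins 4, HSP23.6-MITO, HSP22.0, HSP17.4 and HSP21. The remaining pair were MRD1 (AT1G53480), with 20.1, 23.4 and 21.5 TPM in flu toc33 light, against 0.948, 1.16 and 1.11 TPM in flu light, and AT4G22520. The locus AT4G22520 had 12.3, 15.6 and 23.4 TPM in flu toc33 light, against 0, 2.48 and 0 TPM in flu light. Groups that do not overlap were a condition of the choice of these 12 genes, so their lack of overlap is no result.

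Genes listed as early responders to singlet oxygen were lower throughout. All 24 listed genes were tested, 24 were lower and 0 higher, and the median difference was -2.83 against 0.078 for all genes. The list was drawn up knowing how these genes moved in the same libraries, and 14 of its genes also stand in other lists below, so its direction is no independent evidence. BAP1 (AT3G61190), a membrane-binding inhibitor of cell death and a standard marker of the flu response, had 3.01, 3.37 and 2.70 TPM in flu toc33 light, against 24.4, 25.2 and 25.4 TPM in flu light. WRKY40 (AT1G80840), a repressor factor induced by many plastid signals, had 13.8, 17.9 and 14.1 TPM in flu toc33 light, against 278, 285 and 291 TPM in flu light. Its relative WRKY33 (AT2G38470), an activator of camalexin synthesis, had 42.0, 45.5 and 43.0 TPM in flu toc33 light, against 484, 464 and 483 TPM in flu light. Each WRKY gene was thus low in 3 libraries and high in 3, with a gap far wider than the spread in a group. FBS1 (AT1G61340), an F-box protein induced by stress, averaged 25.4 ± 1.88 TPM in flu toc33 light and 426 ± 9.28 TPM in flu light (SD, n = 3 each; log2 -4.02, limma, adjusted p = 3.75e-13). OXI1 (AT3G25250), a protein kinase activated by reactive oxygen, was lower, at a log2 difference of -1.87, and SIB1 (AT3G56710), a plastid and nuclear partner of sigma factor 1, at -2.72. AT5G64870 showed the smallest difference of the list, -0.79, and the remaining genes lay between -5.23 and -1.87.

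Most ERF and DREB genes of the AP2 transcription factors were lower. Of all 23 tested loci named ERF, 21 were lower and 2 higher, ERF38 by 0.90 and ERF71 by 0.92, with a median of -2.18. Group IX, which holds activators of defence genes, had 10 of 10 tested genes lower with a median of -3.04, and group VIII, which holds repressors with an EAR motif, had 7 of 7 lower with a median of -1.70. Within group IX, ERF6 (AT4G17490) had 12.7, 11.1 and 12.6 TPM in flu toc33 light, against 169, 171 and 164 TPM in flu light, and ERF5, ERF13 and ERF104 were lower, at log2 values of -3.58, -3.34 and -2.74. Repressors followed with ERF11 at -3.23, ERF8 at -2.79 and ERF4 at -2.57, while ERF3 differed by -0.51. Activators and repressors of the family were thus both lower, and the smallest falls lay in group VIII. Of the cold and drought factors, 11 of 11 tested genes were lower, with a median of -2.20. CBF2 (AT4G25470) had 4.62, 4.25 and 4.47 TPM in flu toc33 light, against 51.5, 46.3 and 51.6 TPM in flu light. DREB2A (AT5G05410), which drives drought and heat genes, had 25.4, 27.7 and 26.6 TPM in flu toc33 light, against 122, 128 and 128 TPM in flu light.

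Among zinc finger, NAC and WRKY factors more were lower than higher. Of 10 tested ZAT and AZF genes, repressors of the C2H2 zinc finger class, 9 were lower and 1 was higher, with a median of -2.43. ZAT12 (AT5G59820), a regulator of the oxidative stress response, had 51.4, 54.6 and 52.6 TPM in flu toc33 light, against 263, 270.5 and 262 TPM in flu light. ZAT10 (AT1G27730) averaged 38.2 ± 3.41 TPM in flu toc33 light and 229 ± 9.82 TPM in flu light (SD, n = 3 each). The largest difference was that of ZAT11, -4.31. AT2G28200 was the gene that stood higher, by 0.63. Among 17 NAC factors linked to stress, 13 were lower and 3 higher. ATAF1 and its close relatives ATAF2, NAC032 and NAC102 differed by log2 values of -2.29, -2.37, -2.3 and -2.85, and NAC102 (AT5G63790) stood at 86.3, 87.7 and 86.4 TPM in flu toc33 light, against 619, 649 and 629 TPM in flu light. NAC017, a membrane-bound factor of mitochondrial signalling, differed by -0.32, and NAC13, a factor of the same signalling, was higher by 0.30. The NAC family as a whole was less one-sided, with 30 lower, 18 higher and 21 not past the threshold of 69 tested and a median of -0.19. The WRKY family as a whole was measured at 47 of 72 loci, of which 30 were lower, 7 higher and 10 not past the threshold, with a median of -0.71. WRKY28, WRKY18 and WRKY53 lay at -4.24, -4.19 and -3.66, and at the other end WRKY35 lay at 1.03. The family therefore spanned both signs, with most of its tested loci below 0.

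**Figure D2:**
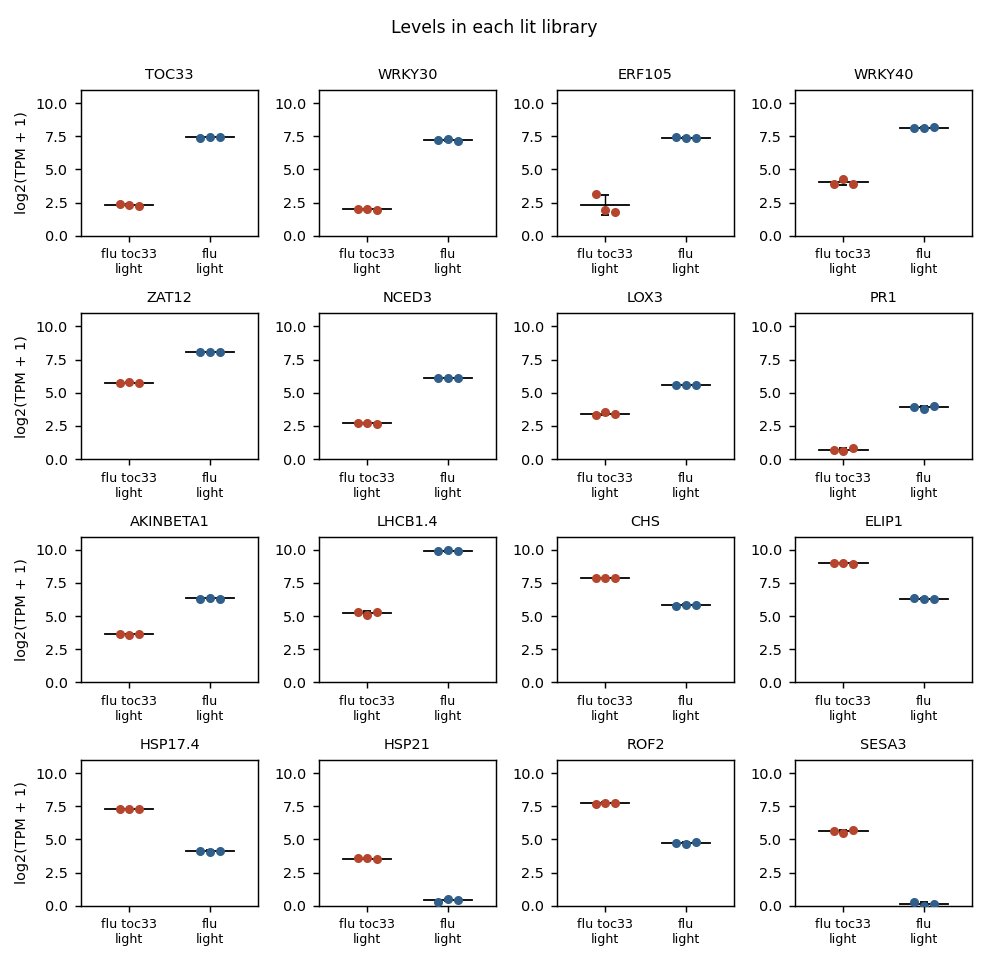
Level of 16 genes in each lit library as log2(TPM + 1) on the y axis, with flu toc33 light in red on the left of each panel and flu light in blue on the right, points for single libraries and bars for the mean and SD (n = 3). TOC33, the WRKY, ERF and ZAT factors, NCED3, LOX3, PR1, AKINBETA1 and LHCB1.4 are lower and CHS, ELIP1, HSP17.4, HSP21, ROF2 and SESA3 higher in the double mutant, and no panel shows overlapping groups.

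Kinases, calcium sensors and ubiquitin ligases of the stress response were lower as well. Of 13 genes of MAP kinase cascades 12 were lower. MPK3 (AT3G45640), a kinase of wounding and defence, had 56.8, 61.6 and 59.2 TPM in flu toc33 light, against 419, 407 and 426 TPM in flu light. MPK6, which acts beside it, differed by -0.24. MKK9 and MKK4, kinases upstream of MPK3 and MPK6, lay at -2.18 and -1.22. Calmodulin-like proteins were tested at 12 loci, 11 of them lower, with a median of -1.47. Among them CML38 (AT1G76650) had 3.92, 4.93 and 4.02 TPM in flu toc33 light, against 112, 118 and 110.0 TPM in flu light. TCH3 (AT2G41100), a sensor known for its response to touch, had 325, 336 and 345 TPM in flu toc33 light, against 1404, 1366 and 1394 TPM in flu light. Plant U-box ligases tied to stress were lower at 8 of 9 loci, with PUB24, PUB19, CMPG1 and PUB23 at -3.48, -3.29, -3.0 and -2.65. PUB22, which acts beside PUB23 and PUB24 against immune signalling, lay at -1.45.

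Abscisic acid genes were lower from synthesis to targets. Of 25 tested genes 22 were lower and 2 higher, with a median of -1.18. NCED3 (AT3G14440), which makes the rate-limiting cleavage of synthesis under stress, had 5.73, 5.55 and 5.33 TPM in flu toc33 light, against 68.5, 68.9 and 68.0 TPM in flu light. CYP707A3, which inactivates the hormone, lay at -3.1. Among the phosphatases that hold the pathway down, HAI1 (AT5G59220) and AHG3 lay at -2.13 and -2.08, and ABI1 and ABI2 at -1.32 and -1.18. Targets of the pathway included RD29A (AT5G52310), with 105, 111 and 104 TPM in flu toc33 light, against 513, 524 and 524 TPM in flu light. The dehydrin ERD10 (AT1G20450) averaged 267 ± 2.12 TPM in flu toc33 light and 1054 ± 50.4 TPM in flu light (SD, n = 3 each). The factors ABF2 and ABF3 differed by less, -0.68 and -0.53, ABF4 did not pass the threshold (log2 -0.051, adjusted p = 0.315), and ABA2, an enzyme of synthesis, was higher by 0.68.

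Jasmonate, salicylic acid and ethylene genes were mostly lower. Of 16 genes of jasmonate synthesis and turnover 13 were lower (median -1.05): the lipoxygenases LOX3 (AT1G17420) and LOX4 lay at -2.15 and -2.65, with 9.14, 10.5 and 9.60 TPM in flu toc33 light, against 46.4, 46.7 and 47.1 TPM in flu light for LOX3. The allene oxide cyclase genes AOC1, AOC2 and AOC3 lay at -1.80, -1.54 and -2.55, whereas AOC4 was higher by 0.44; these genes are similar in sequence and their shares of reads are uncertain. In signalling, 12 of 17 genes were lower (median -0.84). The repressor JAZ1 had 14.2, 14.8 and 15.37 TPM in flu toc33 light, against 129, 127 and 122 TPM in flu light. The factor MYC2 was lower, at a log2 difference of -1.66, and its relative MYC4 was higher by 1.06. The receptor COI1 did not pass the threshold (log2 -0.079, adjusted p = 0.198). Defence outputs of jasmonate were lower at 8 of 10 (median -1.54), from PDF1.2 at -5.43 to the storage protein gene VSP2, higher by 0.29. Salicylic acid and EDS1 genes were lower at 14 of 16 tested loci (median -1.27). PR1 (AT2G14610), the classic output gene of the hormone, had 0.564, 0.50 and 0.819 TPM in flu toc33 light, against 14.4, 13.0 and 15.1 TPM in flu light. EDS1 and the factor SARD1 lay at -1.86 and -2.46, while ICS1, the enzyme that makes the precursor of the hormone, did not pass the threshold (log2 -0.063, adjusted p = 0.435). Ethylene genes were lower at 14 of 19 (median -0.43), led by the synthesis enzyme ACS6 at -1.80. Type A response regulators of cytokinin, feedback repressors of that hormone, were lower at 6 of 6, from -1.49 for ARR15 to -0.58 for ARR4.

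Heat shock proteins moved the other way. Of 16 small heat shock proteins, chaperones that hold unfolding proteins, 15 were higher and 1 lower, with a median of 2.23. They came from several compartments. In the cytosol HSP17.4 (AT3G46230) had 157, 159.6 and 153 TPM in flu toc33 light, against 16.9, 15.6 and 16.7 TPM in flu light. The mitochondrial HSP23.6-MITO (AT4G25200) had 71.2, 68.4 and 71.2 TPM in flu toc33 light, against 5.95, 5.03 and 5.25 TPM in flu light. The plastid HSP21 (AT4G27670) had 11.1, 10.8 and 10.4 TPM in flu toc33 light, against 0.238, 0.429 and 0.363 TPM in flu light. The endoplasmic reticulum form HSP22.0 (AT4G10250) had 13.2, 12.5 and 13.0 TPM in flu toc33 light, against 0.295, 0.560 and 0.405 TPM in flu light. These genes were chosen among those whose groups did not overlap. The whole list summed to 1746 to 1813 TPM in flu toc33 light, against 481 to 515 TPM in flu light, where the most abundant member, AT1G07400, averaged 92.3 TPM. AT4G21870 was the listed locus that was lower, at -1.43. Cytosolic chaperones and their partners were higher at 16 of 17 tested loci (median 1.31). HSP90.1 (AT5G52640), the heat-inducible HSP90, had 536, 566 and 554 TPM in flu toc33 light, against 116, 118 and 119.6 TPM in flu light. HSP101 (AT1G74310), a disaggregase, had 176, 186 and 178 TPM in flu toc33 light, against 71.7, 71.5 and 76.7 TPM in flu light. Both stood above flu in all libraries, and ROF2 (AT5G48570), an immunophilin of the heat response, had the largest difference of the group, 3.01. HSP70, ROF1, HOP3 and HSA32 lay at 1.79, 1.62, 2.27 and 1.71. HSP70 and HSP90 genes are similar in sequence, which leaves the split between single copies uncertain.

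The heat shock factors, only some of which are known to switch such genes on, did not share a direction. Of 17 tested, 6 were higher and 7 lower, and the median was -0.0018. HSFA2 (AT2G26150) and HSFA7A, factors induced by heat, were higher by 1.06 and 1.31, and HSFA2 had 118, 120.0 and 114 TPM in flu toc33 light, against 52.7, 54.4 and 60.8 TPM in flu light. HSFB1 and HSFB4 were higher by 1.13 and 1.46. HSFA1E, of the master group, was lower, at a log2 difference of -0.93, and HSFA1D did not pass the threshold (log2 0.062, adjusted p = 0.336). HSFC1, HSFA4A (AT4G18880) and HSFA6B were the most reduced, at -2.34, -2.29 and -1.77, with 10.0, 9.42 and 9.52 TPM in flu toc33 light, against 50.4, 50.7 and 52.5 TPM in flu light for HSFA4A, a factor linked to reactive oxygen.

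Chaperones of the endoplasmic reticulum and the plastid were higher by less. In the endoplasmic reticulum 14 of 17 genes were higher (median 0.66), among them BIP1, BIP2 and calnexin CNX1 at 1.04, 0.82 and 1.07, whereas BZIP60 (AT1G42990), the factor whose mRNA is spliced in the unfolded protein response, was lower, with 115, 116 and 112 TPM in flu toc33 light, against 279.8, 288 and 287 TPM in flu light. In the plastid 13 of 20 chaperone and Clp protease genes were higher and 2 lower (median 0.37), against 11 higher and 5 lower after median-ratio scaling. Chaperonin subunits Cpn60beta2 (AT3G13470) and CPN60A lay at 1.88 and 1.00, the stromal HSP70 genes CPHSC70-2 and CPHSC70-1 at 1.34 and 0.73, and the disaggregase CLPB3 at 0.78. Cpn60beta2 stood at 259, 274 and 265 TPM in flu toc33 light, against 72.7, 70.1 and 72.4 TPM in flu light. Proteolytic and regulatory Clp subunits differed little: CLPP4 was higher by 0.24, CLPP3 was lower, at a log2 difference of -0.13, and CLPP5, CLPP6, CLPR1 and CLPR4 did not pass the threshold. CLPD, a Clp chaperone known from drought and senescence, was lower, at a log2 difference of -1.67.

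The import machinery apart from TOC33 was mostly slightly higher. Of 24 TOC and TIC genes 16 were higher and 3 lower, TOC33 among the lower ones, with a median of 0.25; after median-ratio scaling 15 were higher and 4 lower. The channel gene TOC75-III (AT3G46740) had 118, 122 and 118 TPM in flu toc33 light, against 88.6, 91.1 and 95.9 TPM in flu light. The main receptor TOC159 was higher by 0.20, and TIC20-I, TIC56 and TIC100, which form a complex of the inner envelope, by 0.44, 0.65 and 0.52. TIC110 and TIC40, which work with stromal chaperones, were higher by 0.36 and 0.19. SP1 (AT1G63900), a ubiquitin ligase that removes TOC proteins, was lower, with 18.22, 20.0 and 19.4 TPM in flu toc33 light, against 32.4, 34.5 and 33.1 TPM in flu light. Components of plastid-to-nucleus signalling were divided, 10 higher and 6 lower of 18 (median 0.13), and 7 to 7 after median-ratio scaling. At the low end lay SIB1 and OXI1, given above, and SIB2, a relative of SIB1, at -0.86. At the other end GUN1 (AT2G31400), a pentatricopeptide protein of the plastid, was higher by 0.52, GUN4 (AT3G59400), which activates magnesium chelatase, by 0.85, and SAL1 (AT5G63980), the phosphatase whose substrate accumulates as a stress signal, by 1.04. The FTSH protease subunits that degrade damaged photosystem II and EX1 were higher too, FTSH5, FTSH1, FTSH8 and FTSH2 by 0.73, 0.67, 0.67 and 0.10; the value of FTSH2 changed sign under quantile normalization.

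Antenna proteins of the photosystems were mostly lower and the rest of photosynthesis was mixed. Of 21 light-harvesting genes 15 were lower and 5 higher (median -0.52). LHCB1.4 (AT2G34430) had 37.8, 32.5 and 38.6 TPM in flu toc33 light, against 953, 1009 and 940.2 TPM in flu light. LHCB1.3 (AT1G29930), the most abundant copy, averaged 4871 ± 197 TPM in flu toc33 light and 14009 ± 424 TPM in flu light (SD, n = 3 each). LHCB1 genes are near-identical and the split between them is uncertain. LHCA1, LHCA2, LHCA3 and LHCA4, the antenna of photosystem I, lay at -0.57, -1.12, -0.52 and -0.53, while LHCB3, LHCB6 and LHCB7 were higher by 0.27, 0.36 and 0.91. Of 30 nuclear photosystem and electron transport genes 19 were lower and 6 higher (median -0.25). The lowest were the photosystem I subunit PSAE2 at -0.95 and the oxygen-evolving subunit PSBQ2 at -0.87, and the highest was PSBS (AT1G44575), the sensor of energy dissipation, at 0.78, with 1774, 1769 and 1759.9 TPM in flu toc33 light, against 1052, 1012 and 1024 TPM in flu light. Calvin cycle genes divided 10 higher to 9 lower with a median of 0.10, close to all genes, and divided 6 to 9 after median-ratio scaling. RBCS2B was the lowest of them, at -1.18, and FBA1 (AT2G21330), an aldolase, the highest, at 0.68.

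Photoprotective and pigment genes tended to be higher. ELIP1 (AT3G22840), an early light-induced protein thought to bind free chlorophyll, had 509, 505 and 491 TPM in flu toc33 light, against 80.7, 77.3 and 78.4 TPM in flu light, and ELIP2 was higher by 0.98. With SEP and OHP relatives 7 of 8 genes were higher (median 0.72), against 6 higher and 1 lower after median-ratio scaling. Of 14 carotenoid genes 12 were higher, led by the hydroxylase BCH1 at 1.11, with PSY, the entry enzyme, at 0.36, and BCH2 lower at -0.43. Tetrapyrrole synthesis had 20 higher and 6 lower of 29 (median 0.26). Steps of the chlorophyll branch were higher, CHLH at 0.94, PCB2 at 0.90 and CRD1 at 0.45, and HEMA1, the main first committed step, at 0.42. Its counterpart HEMA2 (AT1G09940) was lower with 12.9, 12.8 and 13.2 TPM in flu toc33 light, against 42.2, 45.9 and 45.5 TPM in flu light. So was FC1 (AT5G26030), the stress-inducible ferrochelatase, with 79.0, 79.0 and 81.5 TPM in flu toc33 light, against 219.7, 230.3 and 231 TPM in flu light. FC2, the ferrochelatase of photosynthetic tissue, was higher by 0.47. The reductases of protochlorophyllide split, PORB lower at -1.32 and PORC higher at 0.51. In chlorophyll breakdown 4 genes were higher and 5 lower of 10, with CLH2 (AT5G43860), a chlorophyllase, at 2.3.

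Antioxidant enzymes were more often higher. Of 23 genes for enzymes that remove reactive oxygen 15 were higher and 5 lower (median 0.24), with the glutathione peroxidase GPX7 (AT4G31870) at 1.97 and the plastid superoxide dismutases CSD2, FSD2 and FSD3 at 1.13, 0.97 and 0.96. GPX7 had 51.3, 51.4 and 51.3 TPM in flu toc33 light, against 11.4, 12.6 and 13.2 TPM in flu light. The thylakoid peroxidase TAPX was lower, at a log2 difference of -0.40. VTC2 (AT4G26850), the rate-limiting enzyme of ascorbate synthesis, had 1168, 1211 and 1189 TPM in flu toc33 light, against 517, 529 and 525 TPM in flu light. VTE1, the tocopherol cyclase, was higher by 0.96. Genes known to answer electrophiles or mitochondrial stress went the other way in 10 of 15 cases (median -0.46). The oxophytodienoate reductase OPR1 (AT1G76680) had 136, 129.8 and 127 TPM in flu toc33 light, against 680.2, 658 and 701 TPM in flu light. The glucosyltransferase UGT73B5 lay at -2.38, and AOX1A, the alternative oxidase, at -0.29. AT2G21640 stood out from that list, higher by 2.41. Glutathione transferases of the phi class had 3 higher and 8 lower of 12 tested (median -0.43), and those of the tau class 7 and 12 of 25 (median -0.046). The phi class included GSTF6 (AT1G02930), with 79.2, 76.3 and 85.2 TPM in flu toc33 light, against 497, 479 and 486 TPM in flu light. Its neighbour GSTF7 lay at -1.75.

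Genes known from darkness and sugar starvation were lower without exception. All 14 listed genes fell, 12 of them by at least 2-fold, with a median of -2.14. DIN10 (AT5G20250), a dark-inducible raffinose synthase family gene, had 46.7, 51.4 and 47.4 TPM in flu toc33 light, against 378, 379.9 and 389 TPM in flu light. ASN1 (AT3G47340), asparagine synthetase, had 55.7, 61.2 and 59.5 TPM in flu toc33 light, against 255, 262 and 258 TPM in flu light. SEN1 (AT4G35770), a senescence and dark marker, had 242, 237 and 239 TPM in flu toc33 light, against 1071, 1074 and 1074 TPM in flu light. AKINBETA1, a subunit of the SnRK1 kinase, lay at -2.72, the oxygenase MIOX2 at -3.32 and glutamate dehydrogenases GDH2 and GDH1 at -1.57 and -0.54. Enzymes that break down branched-chain amino acids and proline were lower at 6 of 7 tested loci (median -1.94): BCAT2, MCCA, IVD and the proline dehydrogenase ERD5 lay at -2.81, -2.49, -1.94 and -2.40. The class II trehalose phosphate synthase homologues TPS8, TPS9, TPS10 and TPS11 were lower, with log2 values of -2.0, -1.73, -1.58 and -2.55, and TPS5 was higher by 1.23. Autophagy genes were lower at 8 and higher at 1 of 10 loci (median -0.20), and the lowest were ATG8F and ATG8E at -1.53 and -1.29.

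Flavonoid synthesis genes were higher from the entry of the path to its anthocyanin branch. Of 21 listed genes 19 passed the filter on low values, 19 were higher and 0 lower, with a median of 1.44; median-ratio scaling left 18 higher. At the entry PAL1 and C4H were higher by 1.37 and 0.94. CHS (AT5G13930), chalcone synthase, had 238, 237 and 233 TPM in flu toc33 light, against 54.2, 57.5 and 57.3 TPM in flu light. CHI, F3H (AT3G51240) and the flavonol synthase FLS1 followed at 1.97, 1.63 and 1.71, and the anthocyanin steps DFR and LDOX at 2.15 and 1.65 with levels under 2 TPM in flu light. MYB regulators of flavonoid synthesis were higher as well, MYB111 by 1.04, PAP1 by 1.44 and MYB12 by 0.24. The call of MYB12 was lost with median-ratio scaling. Light regulators that act upstream of this path, HY5, HYH and RUP2, were higher by 0.67, 0.74 and 1.57, and RUP2 (AT5G23730), a repressor of the UV-B receptor, had 60.3, 61.2 and 61.2 TPM in flu toc33 light, against 20.2, 19.1 and 20.5 TPM in flu light. The 6 epidermis markers, ATML1, PDF2, PDF1, CER6, FDH and CER1, were all higher too (median 0.73), none at 0 and their summed level 1187 to 1257 TPM in flu toc33 light, against 708 to 715 TPM in flu light; the part of this in the flavonoid result was not tested.

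Glucosinolate pathways parted. Aliphatic glucosinolates, sulfur compounds made from methionine, had 13 of 16 genes higher and 2 lower (median 0.71). MYB29 (AT5G07690) and MYB28 (AT5G61420), the factors that drive the path, had log2 differences of 1.71 and 1.22, and MYB28 had 61.1, 66.7 and 66.8 TPM in flu toc33 light, against 25.5, 29.0 and 27.5 TPM in flu light. CYP83A1, SUR1 and SOT18 lay at 0.83, 0.93 and 0.80, while MAM3, of chain elongation, was lower, at a log2 difference of -0.66. Indole glucosinolate and camalexin genes were divided, 4 higher and 7 lower of 12 tested. CYP81F2 (AT5G57220), which modifies indole glucosinolates in defence, had 8.16, 7.92 and 8.37 TPM in flu toc33 light, against 104, 103 and 104 TPM in flu light. MYB51 (AT1G18570) and PAD3, the last step of camalexin synthesis, lay at -2.83 and -2.67, whereas the core enzymes CYP83B1, SOT16 and UGT74B1 were higher by 0.55, 0.55 and 1.2.

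Transcripts of seed storage proteins were present in the lit double mutant and low or near 0 in lit flu. All 11 listed genes were higher, from 1.02 for AT3G01570 to 5.47 for SESA3, with a median of 3.54. The highest in lit flu was CRA1 (AT5G44120), a cruciferin, with 47.0, 48.1 and 45.6 TPM in flu toc33 light, against 20.3, 20.0 and 16.2 TPM in flu light. SESA3 (AT4G27160), a 2S albumin, had 48.4, 44.7 and 51.7 TPM in flu toc33 light, against 0.229, 0 and 0.104 TPM in flu light. CRU3 (AT4G28520), another cruciferin, had 35.6, 38.0 and 34.6 TPM in flu toc33 light, against 1.73, 1.12 and 1.08 TPM in flu light. OLEO1 (AT4G25140), an oleosin of oil bodies, had 10.1, 9.48 and 9.49 TPM in flu toc33 light, against 1.51, 1.35 and 0.810 TPM in flu light. SESA1, SESA2, SESA3 and SESA4 are neighbouring and similar genes, so reads may be shared among them. Every one of these genes was also higher in the dark double mutant, with a median difference of 3.98 there, and SESA3 stood at 228, 41.9 and 165 TPM in dark flu toc33, against 0.414, 0.415 and 0.495 TPM in dark flu. Its dark double mutant libraries were uneven, with replicate 2 the lowest, and all stood above flu.

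Clock genes changed by less than 2-fold and light-signalling genes were more often higher. Of 21 clock genes 8 were higher and 11 lower, from PRR5 at -0.94 to LNK1 at 0.90; the morning genes CCA1 and LHY were higher by 0.16 and 0.47, and the evening gene TOC1 was lower, at a log2 difference of -0.41. Of 20 light-signalling genes 13 were higher and 6 lower (median 0.43). PHYB was higher by 0.46, PHYA and CRY2 were lower, at log2 values of -0.58 and -0.58, and PIF7 and PIF4, growth-promoting factors, were higher by 0.90 and 0.61. Cyclins, which drive the cell cycle, were higher at 16 of 26 tested loci and lower at 0 (median 0.31), by less than 2-fold each; CYCD1;1 had 17.5, 18.8 and 19.2 TPM in flu toc33 light, against 9.07, 8.84 and 8.75 TPM in flu light.

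Markers of other cell types were set beside these groups. Root markers were higher at 5 of 6 tested loci, none was at 0 in a whole group, and their sum, which rests almost wholly on BGLU23, was 1338 to 1370.3 TPM in flu toc33 light, against 797 to 842 TPM in flu light. Guard cell lineage markers had 4 higher and 2 lower of 6 (median 0.42). They summed to 66.1 to 71.0 TPM in flu toc33 light, against 61.7 to 63.9 TPM in flu light. Vascular markers had 2 higher and 2 lower of 6 (median 0.020). They summed to 113 to 117 TPM in flu toc33 light, against 136 to 142 TPM in flu light. Mesophyll markers had 2 higher and 2 lower of 5 and summed to 22941 to 23348 TPM in flu toc33 light, against 23837 to 25791 TPM in flu light. Most of this sum was RBCS1A, whose call was lost with quantile normalization. That method gives equal values to genes of equal rank, and RBCS1A came out equal in both groups. The lost call therefore does not speak to how stable its difference was. Their part in the other results was not tested.

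**Figure D3:**
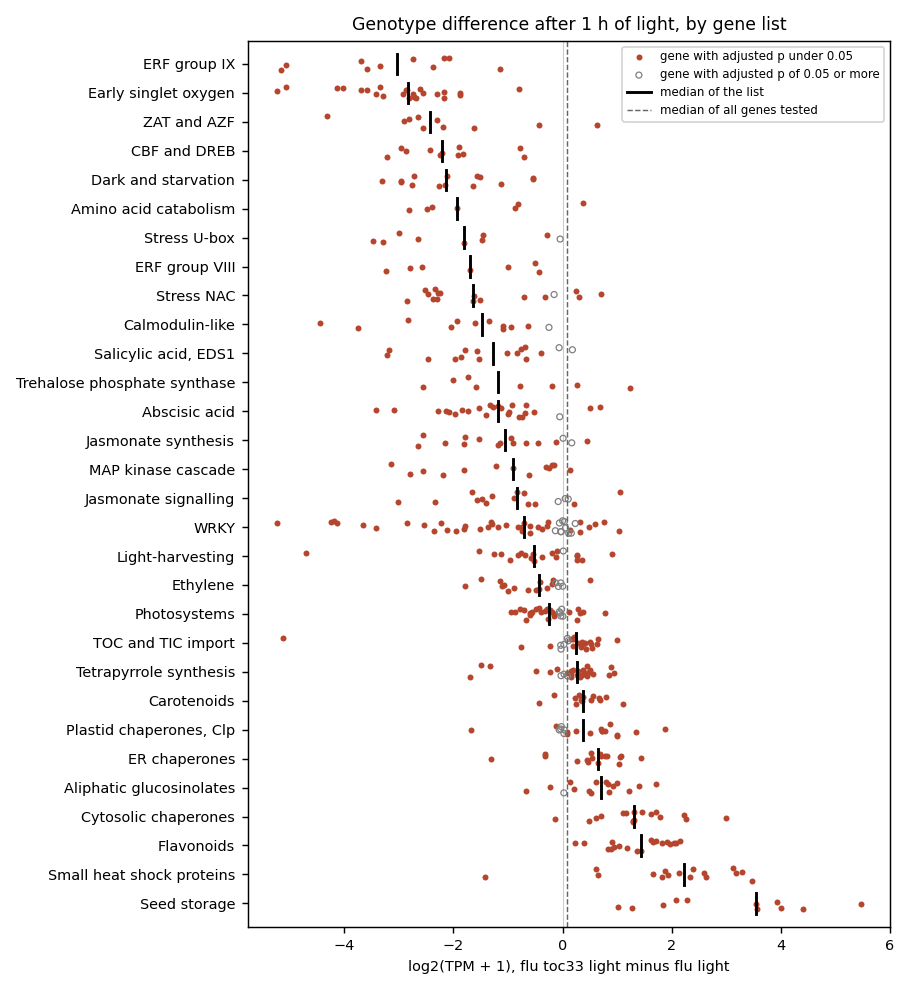
Log2 difference between flu toc33 light and flu light (x axis) for every tested gene of 30 gene lists (rows), filled where the adjusted p is under 0.05 and open elsewhere, with a black bar at the median of the list and a dashed line at the median of all genes tested, 0.078. Stress-related transcription factors and starvation genes lie to the left, with medians down to -3.04, and heat shock, flavonoid and seed storage genes to the right, with medians up to 3.54.

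The dark libraries give the genotype difference at the end of the dark period. In them TOC33 stood at 23.9% of its flu level, against 2.31% in light, so the double mutant groups also differed in this. The reason was not tested. In flu toc33 dark against flu dark 4118 of 19667 genes were higher (20.9%) and 4027 lower (20.5%), in a limma model of all 12 libraries. Among the 709 genes at least 2-fold higher after light, 291 (41.0%, or 7.07% of all genes higher in the dark) were also higher in the dark and 128 (18.1%, or 3.18% of those lower in the dark) lower. Among the 1528 at least 2-fold lower after light, 634 (41.5%, or 15.74% of those lower in the dark) were also lower in the dark and 242 (15.8%, or 5.88% of those higher in the dark) higher. The test of the difference between the genotype effect in light and that in the dark called 6220 genes more positive in light (31.6%) and 4931 more negative (25.1%), together 56.7%.

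Several groups had smaller medians in the dark than in the light, though single members already differed in the dark. The early singlet oxygen genes had 5 higher and 9 lower of 24 in the dark, with a median of -0.15, and 24 of 24 were more negative in light by the test of the difference. That list was drawn up knowing how its genes moved in these libraries, so the count is no independent evidence. WRKY30 stood at 0.911 ± 0.336 TPM in dark flu toc33, against 0.854 ± 0.214 TPM in dark flu (SD, n = 3 each), a difference of 0.035 (adjusted p = 0.838), and the effect in light minus that in the dark was -5.27 ± 0.164 (SE; limma, adjusted p = 1.54e-11). For group IX ERF genes the dark median was -0.0035 (3 higher and 1 lower of 10), with 9 of 10 more negative in light, and for abscisic acid genes it was -0.0069 (5 and 7 of 25), with 22 of 25. In the other direction small heat shock proteins had 1 higher and 7 lower of 16 in the dark and a median of -0.28, with 15 of 16 more positive in light. HSP17.4 stood at 0.585 ± 0.0601 TPM in dark flu toc33, against 1.80 ± 0.255 TPM in dark flu, so it was lower in the dark double mutant, at a log2 difference of -0.82 and higher in the lit one. Flavonoid genes had 6 higher and 6 lower of 19 in the dark, a median of -0.043, and 18 of 19 were more positive in light. CHS stood at 33.6 ± 0.647 TPM in dark flu toc33, against 38.0 ± 2.01 TPM in dark flu.

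Other groups changed sign between the treatments. Starvation genes were higher in the dark double mutant at 13 of 14 loci (median 0.40) and lower in the lit one, and 13 were more negative in light. ASN1 showed this, with 709, 727 and 696 TPM in dark flu toc33, against 368, 375 and 313 TPM in dark flu. Its dark difference was 1.02 (limma, adjusted p = 1.5e-08). Aliphatic glucosinolate genes were lower in the dark double mutant at 13 of 16 loci (median -0.93), and all 16 were more positive in light. CYP79F1, which makes the first step of the core structure, had dark and light differences of -1.80 and 0.62. Another set differed in both treatments: PDF1.2 was lower, at a log2 difference of -6.48 in the dark and -5.43 in the light, PR1 at -4.63 and -3.22, and the antenna genes had medians of -0.71 and -0.52. Jasmonate synthesis genes were already lower in the dark at 13 of 16 loci (median -0.65), with 4 more positive and 6 more negative in light. Salicylic acid and EDS1 genes were lower in the dark at 12 of 16 (median -0.50), with 2 more positive and 11 more negative in light. Sigma factors were higher in the dark at 6 of 6 (median 0.40). For electrophile-responsive genes the dark median, -1.23, was the more negative, against -0.46 in light, and UGT74E2 was lower in the dark, at a log2 difference of -3.20 and higher in light by 0.12, a call that median-ratio scaling ends. The lit and dark groups also differ by 1 h in sampling time, with none kept dark over it, so light and time cannot be told apart here.

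**Figure D4:**
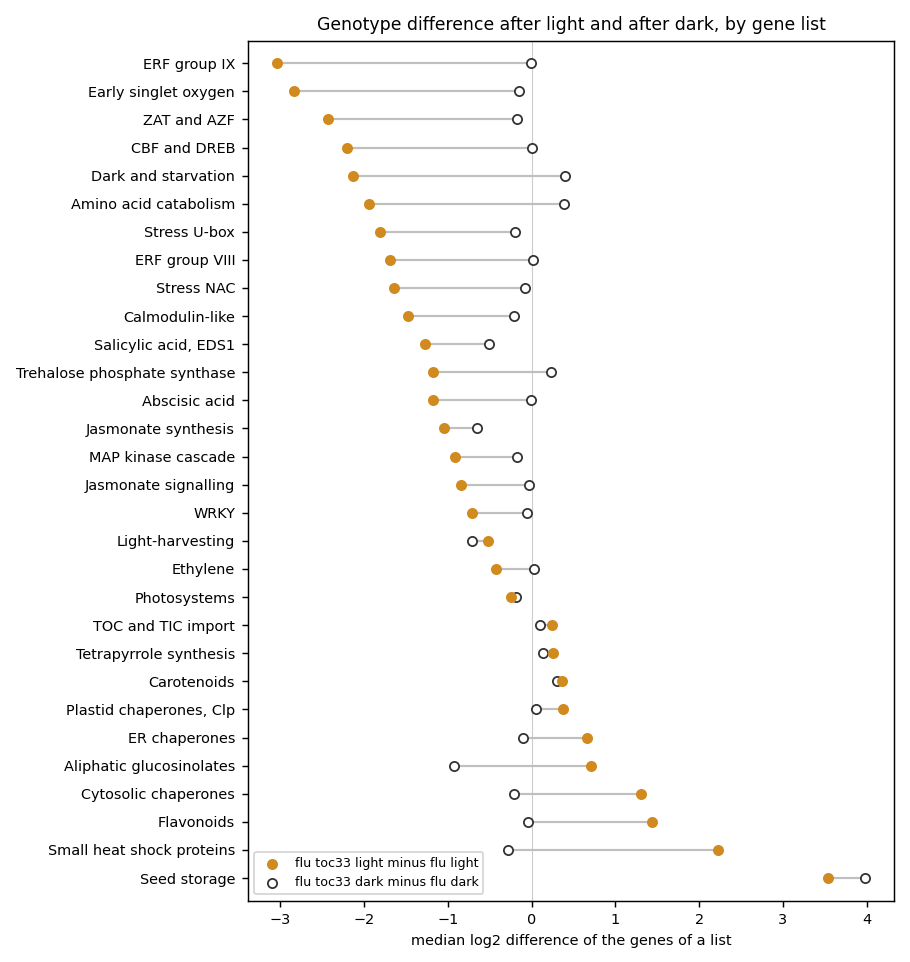
Median log2 difference between flu toc33 and flu (x axis) of 30 gene lists (rows), filled points for the lit samples and open points for the dark samples, joined by a grey line. Long lines mark lists whose medians differ between treatments, such as ERF group IX with -3.04 in light and -0.0035 in the dark, and short ones lists such as the photosystems with -0.25 and -0.19.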

How the data were processed

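Total RNA of flu toc33-1 and flu seedlings was read on the DNBSEQ-T7 platform, per the labels' protocols; the titles give an age of 7 d and the series text 6 d. The authors deposited 1 table of TPM values for 48359 transcripts in 12 libraries; per the submitters' processing notes kallisto 0.46.2, sleuth 0.30.0 and TAIR10 were used. For strand settings, transcript set and mRNA selection the sources used here give nothing. TPM keeps no read depth, so no counting intervals are given, and reads of near-identical copies are shared by estimation.

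Transcripts were summed to 27655 loci; symbols came from a RefSeq gene table of assembly TAIR10.1, which held 27445 of them, and its coordinates were not used. Genes that reached 1 TPM in 3 or more of the 6 lit libraries were tested on log2(TPM + 1) with limma 3.58.1 (R 4.3.3), moderated two-sided tests with a trend of the spread, Benjamini-Hochberg adjustment over all 19252 genes and a threshold of 0.05. Dark differences and the difference between light and dark came from a fit of 4 group means over 12 libraries (19667 genes). Replicate numbers are not stated to pair the samples, and no block was fitted in the reported values. The pipeline was run on simulated data in which few genes changed, in random directions. That run cannot check how scaling acts where most genes differ. Figures used Python 3.11.15 and matplotlib 3.10.9.

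Gene groups were described by counts and medians of 54 lists (760 different loci, all found in the table, 708 with their symbol in the RefSeq table) and 17 families chosen by symbol. The comparison, its lists and the tests were chosen with earlier results of these data known. The rule for named genes took TOC33, TOC34, FLU, EX1 and EX2; the 12 largest rises and falls among genes past the threshold, at least 2-fold, without overlap and averaging 5 TPM or more in the group where they are higher; up to 4 such members of each list or family, with no minimum fold or overlap; and further list members by their role. Genes that the table does not name are given by locus. Promoter, protein and other sequences were not used here. Other settings tried were a pseudocount of 0.1 or of 5 TPM, a filter at 5 TPM or none, quantile and median-ratio scaling, removal of organelle genes, a replicate block, a robust spread, the fit of all 12 libraries and leaving out each library.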

Additional observations from a re-analysis of the deposited data

Results flagged for a closer look

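For 24 of the 28 genes that were fixed by name or had the largest differences after light, the genotype effect differed between light and dark by a test of the difference itself (limma, adjusted p under 0.05 over 19667 genes); these genes were chosen for their size in light, which favours such a difference. The effect was more negative in light at 15 of them and more positive at 9. Differences of the log2 effect, light minus dark, are given here with no explanation.

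Among stress and defence genes the values were -5.94 for AT2G22880, which was listed at 0 in flu toc33 light so that its value is no bound, -5.27 for WRKY30, -5.16 for ERF98, -5.07 for ERF105, -4.56 for AT1G22810, -4.54 for PP2-B13, -4.02 for PP2-B14 and -3.69 for AT4G15975. PDF1.2 and PDF1.2c, lower in both treatments, had 1.05 and 0.84. TOC33 had -3.08, LHCB1.4 -3.03, EX2 -0.63 and TOC34 0.49. Small heat shock proteins had 4.00 for HSP17.4, 3.79 for HSP23.6-MITO, 3.35 for HSP22.0 and 3.16 for HSP21, and AT4G22520 had 2.97. Seed storage genes, higher in both treatments, had -2.83 for SESA1, -2.72 for SESA4, -2.44 for SESA2, -2.09 for CRB and 1.58 for CRU3. The SE of these values ran from 0.52 for CRU3 to 0.62 for SESA4, and CRB averaged 0.027 TPM in flu light. Over all genes 6220 were more positive and 4931 more negative in light than in the dark.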

How the results depend on the processing

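TOC33 stayed lower past the threshold under every alternative run, and leaving out each library in turn gave log2 differences of -5.16 to -5.09. The same omissions gave 7256 to 7759 genes higher, 5109 to 5684 lower, 614 to 728 at least 2-fold higher and 1290 to 1549 at least 2-fold lower, and for the difference between light and dark 5683 to 7120 more positive and 4460 to 5099 more negative. A pseudocount of 5 TPM moved the 2-fold counts to 322 higher and 943 lower. Median-ratio scaling gave 6812 higher and 6820 lower, 50.0% higher against 58.3% as reported. The fit with the replicate number as a block gave 7967 higher and 5709 lower. Deviations of same-numbered libraries correlated at 0.0107, 0.0307 and -0.0105, which gave no sign of pairing but cannot exclude it. Of 1013 called genes among the 1234 tested members of lists and families or genes named by rule, 912 kept direction and call under every alternative that could be run on them, 101 lost the call or the sign under at least 1, and 9 of them changed sign. Those described here among them were EX1, FTSH2, UGT74E2, MYB12 and RBCS1A. FTSH2 changed sign, to -0.072 with quantile normalization. RBCS1A lost its call with that same setting, which gave it an equal value in both groups.

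Some list medians changed sign: expansins to 0.00618 and MYB factors to -0.0121 with no filter, aquaporins to -0.0827 with a filter at 5 TPM and -0.0197 with median-ratio scaling, and between -0.00255 and 0.109 when libraries were left out, photorespiration to -0.0703 with quantile normalization and -0.0576 with median-ratio scaling, and xyloglucan transferases between -0.242 and 0.000364 when libraries were left out. Smaller shifts changed the sign of heat shock factors (0.034 with quantile normalization), Aux/IAA proteins (-0.030), vascular markers (-0.049) and mesophyll markers (-0.046, these with median-ratio scaling), and chlorophyll breakdown (0.10 with a filter at 5 TPM). The cause was not tested. Depth is unknown, so the precision of genes at low TPM cannot be stated.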

Other observations

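Several families held both higher and lower genes after light, as did all genes tested. Xyloglucan transferases, which remodel the cell wall, had 10 higher and 13 lower of 28 tested, with the neighbours XTH18 and XTH19 lower, at log2 values of -3.15 and -2.72 and XTH14 higher by 2.11. Among 63 MYB factors 29 were higher and 17 lower, and MYB15 (AT3G23250) had 4.70, 5.93 and 6.15 TPM in flu toc33 light, against 55.4, 53.9 and 57.1 TPM in flu light. Of 26 Aux/IAA repressors of auxin signalling 11 were higher and 12 lower, with IAA19 at -2.13 and AXR3, the highest, at 0.95. The lowest locus of the family lay at -2.28. SAUR genes, many of them auxin-induced, had 20 higher and 13 lower of 47. Aquaporins had 11 higher and 10 lower of 26, with TIP2;2 at -1.2 and NIP6;1 at 1.04. Over all genes tested 41.9% were higher and 30.0% lower, so a split alone is no trait of these families. SAUR genes and MYB factors had shares near these, and a departure of the other families was not tested.

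Sigma factors, which direct the plastid RNA polymerase to promoters, were higher at 6 of 6 loci by up to 0.39 for SIG2, and at 4 after median-ratio scaling. Transcripts of the plastid genome were lower at 35 and higher at 15 of 85 tested loci (median -0.19), and took 0.353% to 0.423% of TPM in flu toc33 light against 0.449% to 0.544% in flu light; the sources used here do not say how mRNA was selected, a limit for organelle transcripts. Photorespiration genes had 3 higher and 4 lower of 9, starch genes 5 and 8 of 18, B-box factors 3 and 6 of 10, brassinosteroid genes 2 and 5 of 8, and expansins 7 and 8 of 18. Genes of nitrate assimilation NIA1 and NIR1 were higher by 0.87 and 0.88. The ferritin FER1, an iron store of the plastid, was lower, at a log2 difference of -1.06.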
